A study of Mus musculus with 8 samples.

Results

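Lipogenesis, lipid storage and adipokine genes, the enzymes, droplet proteins and secreted factors with which fat cells make, keep and release triglyceride, were examined here as 48 named mouse genes. They were grouped by function, with earlier results of these arrays known. Probe sets whose annotation gave exactly 1 symbol, that of a member, were taken, which gave 95 of the 45037 probe sets that are no array controls, and 45 genes of the 18193 with such a probe set. Acsl1, Plin1 and Cfd had none and were not analysed here. Of the 45 genes, 36 passed the filter on low values and were tested, through 62 of the 27026 tested probe sets, and 9 lay below it.

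The arrays came from subcutaneous preadipocytes, which are fibroblast-like cells able to become fat cells, of day 2 newborn mice of the C57BL/6 background, genotype Dicer lox/lox. The 4 Dicer knockout samples received adenovirus Ad5CMVCre-eGFP, which encodes Cre recombinase under a CMV promoter and GFP, and the 4 control samples received Ad5CMVeGFP, with GFP alone, each at 750 MOI with 4 µg/mL polybrene. RNA was taken 4 days later and each sample was hybridised to its own array. Both groups carried the floxed alleles and met a virus, and no array is of Cre virus in cells without floxed alleles, so that effects of Cre and of Dicer loss cannot be told apart. Cells were in growth medium with serum, and the labels name no adipogenic cocktail. Dicer1 itself read 1158, 1190.4, 1404 and 1110.1 on the knockout arrays, against 1153, 1141, 2114 and 1190.3 on the control arrays (1460571_at, log2 difference -0.15, SE 0.20, limma adjusted p = 0.999). Another Dicer1 probe set, 1427941_at, gave -0.26 (SE 0.27, limma adjusted p = 0.999). A probe set outside the excised part does not check the deletion, and the sources used here do not say where these lie.

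Adipocytes import fatty acids that lipoprotein lipase frees from circulating lipoproteins, and they make fatty acids from citrate through ATP citrate lyase, acetyl-CoA carboxylase and fatty acid synthase. Esterification to glycerol yields triglyceride, which perilipins coat in a droplet and which a chain of lipases breaks down again on demand. Preadipocytes hold less of much of this machinery than fat cells do, and its rise is a hallmark of their differentiation, together with secretion of adiponectin and leptin.

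None of the lipid and adipokine genes passed the test between knockout and control cells. By limma, with p-values adjusted by Benjamini-Hochberg across every tested probe set, 0 of 62 member probe sets had an adjusted p under 0.05, against 1 of 27026 overall (0.0037%), and the smallest adjusted p of a member gene was 0.999. At an unadjusted p under 0.05 the count was again 0 of 62, against 3.77% of all tested probe sets. The numbers given to the replicates paired the samples in these data, and when that number entered the model as a block, called the paired fit from here on, 0 of 62 passed as well, against 0.0481% overall. The log2 differences of the tested genes, knockout minus control on the log2(signal + 73.1) scale, ran from -0.51 for Mgll to 0.55 for Fabp4, with a median of -0.07, beside -0.00201 over the 13259 tested genes. Of the 36 genes, 24 were below 0 (50.4% of all tested genes were). The labels call the samples biological replicates but tie none to an animal or culture of its own. A p-value here therefore measures only how far these samples scatter, which may be technical. The number of arrays limits the precision, and the median standard error of a member was 0.18. An effect of fewer cells expressing a gene and one of less RNA per cell cannot be told apart in such samples.

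**Figure D1:**
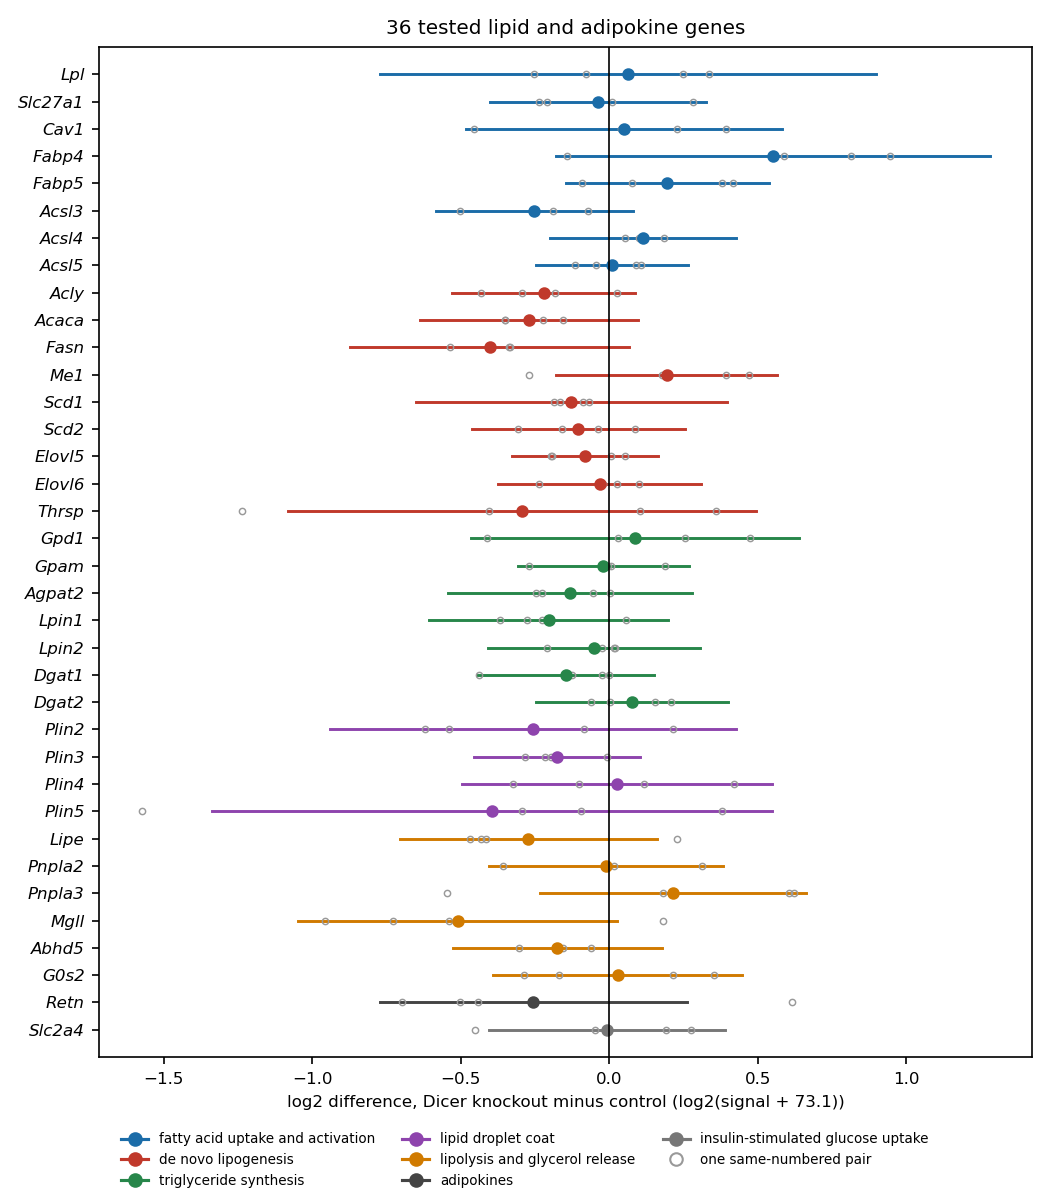
Log2 difference, Dicer knockout minus control, of the 36 tested genes by role (filled points, with 95% intervals of the unpaired fit) and of each same-numbered pair (open circles). All 36 intervals include 0, and the difference is highest for Fabp4 at 0.55 and lowest for Mgll at -0.51.

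Fatty acid uptake and activation came first in the pathway, with 8 of its 9 measured members tested, 6 above 0 and 2 below. Fabp4, the fatty acid binding protein aP2 of adipocytes and macrophages, read 1877, 5961, 5952 and 6206 on knockout arrays 1 to 4, against 2079.7, 3941, 3057 and 3493 on control arrays 1 to 4 (1451263_a_at). Knockout arrays 2, 3 and 4 lay above every control array and knockout array 1 below all of them, so the groups overlapped. Fabp4 averaged 4999 ± 2085 in knockouts and 3143 ± 795 in controls (SD, n = 4 each). The log2 difference was 0.55 (95% interval -0.18 to 1.28, limma adjusted p = 0.999), and the pairs gave -0.14, 0.59, 0.94 and 0.82. In the paired fit its unadjusted p was 0.00338 and its adjusted p 0.251. Without pair 1 the paired fit gave 0.78 (SE 0.10, limma adjusted p = 0.0203). That made Fabp4 the 1 member probe set of 62 to pass there, against 0.296% of all tested probe sets. Without pair 2, 3 or 4 the paired fit gave 0.54, 0.42 and 0.46, and Fabp4 did not pass (limma adjusted p = 0.589, 0.600 and 0.586). The next brightest Fabp4 probe set, 1417023_a_at, did not pass without pair 1 (log2 difference 0.57, adjusted p = 0.173).

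A dimmer Fabp4 probe set, 1425809_at, read 358, 364, 376 and 403 on the knockout arrays and 189, 336, 202 and 277 on the control arrays. It was the only tested member probe set whose groups did not overlap, 1 of 62, against 2.46% of all tested probe sets, and it did not pass (log2 difference 0.49, limma adjusted p = 0.999). All 3 tested Fabp4 probe sets were above 0. Fabp4 is also made by macrophages and endothelium, and the summed signal of 9 measured macrophage markers was 3852.6 to 4317.1 in knockouts and 3800.4 to 4756.6 in controls, with Ptprc, Itgam and Mrc1 below the filter. That of 8 endothelial markers was 2925.5 to 3383.4 in knockouts and 2738.7 to 4005.1 in controls, with Pecam1, Cdh5 and Vwf below the filter. The part of macrophages and endothelium in the Fabp4 values was not tested.

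Lpl, the secreted lipase that frees fatty acids from lipoproteins, read 10006, 27596, 32254 and 28748 on the knockout arrays, against 10574, 21832, 27167 and 34282 on the control arrays (1415904_at). Both arrays numbered 1 were far below the other 6, and the groups overlapped over nearly their whole range (log2 difference 0.06, 95% interval -0.77 to 0.90). Acsl3, which couples long-chain fatty acids to coenzyme A, read 3003, 2135, 2427 and 2229.9 on the knockout arrays and 3160.5, 2443, 3468 and 2665 on the control arrays. Each knockout array was below the control array of the same number (log2 difference -0.25, 95% interval -0.58 to 0.08, paired unadjusted p = 0.0342, paired adjusted p = 0.495). Acsl4, which prefers arachidonate, was higher in 4 of 4 pairs by its brightest probe set. It was the only member gene to be so, against 8.64% of all genes, and did not pass (log2 difference 0.11, SE 0.14). Its dimmer tested probe sets 1418911_s_at and 1451828_a_at were higher in 3 and 1 of 4 pairs. The caveolar coat protein Cav1, the transporter Slc27a1, Acsl5 and Fabp5 had log2 differences of 0.05, -0.04, 0.00898 and 0.20.

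De novo lipogenesis had 9 tested members, of which 8 were below 0 and Me1, a source of NADPH, above (0.19). Another Me1 probe set, 1416632_at, gave 0.45 (SE 0.22). Fasn, the synthase that builds palmitate, read 8184, 4897, 6491 and 4539.7 on knockout arrays 1 to 4, against 10348, 6208, 9437 and 6009.8 on control arrays 1 to 4 (1423828_at). Each knockout array was below its same-numbered control, by a log2 difference of -0.34 in pair 1, -0.34 in pair 2, -0.53 in pair 3 and -0.40 in pair 4, while the groups as such overlapped. Fasn averaged 6028 ± 1669 in knockouts and 8001 ± 2217 in controls (SD, n = 4 each). The log2 difference was -0.40 (SE 0.22 unpaired and 0.08 paired, 95% interval -0.87 to 0.07), or 0.757 times the control level. With an adjusted p of 0.999 in the unpaired and 0.124 in the paired fit, Fasn passed in neither, and its paired value was the smallest of the 36 tested genes.

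Upstream of Fasn, Acaca, the carboxylase that supplies malonyl-CoA, read 2648, 1867, 2591 and 1754 on the knockout arrays, against 2957, 2402, 3039 and 2260.2 on the control arrays (1434185_at). It too was below its same-numbered control in every pair (log2 difference -0.27, 95% interval -0.64 to 0.10, paired adjusted p = 0.437), whereas a dimmer Acaca probe set, 1427595_at, was above 0 (0.28, SE 0.24). Acly, which splits citrate to acetyl-CoA, read 18680.1, 15323, 12775 and 14668 on the knockout arrays and 21224, 18808, 17252 and 14407 on the control arrays. It was lower in 3 of 4 pairs (log2 difference -0.22, 95% interval -0.53 to 0.09, paired adjusted p = 0.449).

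The desaturases Scd1 and Scd2, which introduce the first double bond into stearate, were at -0.13 (SE 0.24) and -0.10 (SE 0.16) on the log2 scale. The elongases Elovl5 and Elovl6 were at -0.08 (SE 0.11) and -0.03 (SE 0.16). Thrsp, a dim lipogenic nuclear protein gene, gave -0.29 (SE 0.36). Over all roles, 4 member genes were lower at an unadjusted p under 0.05 in the paired fit, namely Fasn, Acaca, Acly and Acsl3, against 5.35% of all tested genes, and 1 was higher, Fabp4, against 4.96%. In 7 of the 36 genes every pair was lower, against 9.47% of all genes. These were Acsl3, Acaca, Fasn, Scd1, Dgat1, Plin3 and Abhd5, and none of them passed in either fit. This rests on the brightest probe set. Dimmer tested ones were higher in 2 of 4 pairs for Acsl3 (1428386_at), Scd1 (1415965_at) and Abhd5 (1417566_at). For Acaca (1427595_at) and Dgat1 (1445229_at) they were higher in 3 of 4, and Fasn and Plin3 had no other. In 1 pair the difference was only -0.00172 for Dgat1 and -0.00648 for Plin3.

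Triglyceride synthesis had 7 tested members, 2 above 0 and 5 below, with log2 differences between -0.20 and 0.09 by the brightest probe set. Lpin1, a phosphatidate phosphatase, read 1690.2, 2131, 2792 and 2816 on the knockout arrays, against 2203, 2504, 3400.4 and 2706 on the control arrays, and the groups overlapped (log2 difference -0.20, 95% interval -0.61 to 0.20). Agpat2, the acyltransferase that makes phosphatidate in adipocytes, read 1977, 2034, 1329 and 2239.7 on the knockout arrays and 2057, 2028, 1589 and 2636 on the control arrays (log2 difference -0.13, 95% interval -0.54 to 0.28). Both arrays numbered 3 were the lowest of their group. The mitochondrial acyltransferase Gpam was at -0.02 (SE 0.13) by its brightest probe set and at -0.46 (SE 0.27) by the dimmer 1425834_a_at. Dgat1 and Dgat2, which add the last acyl chain, gave -0.15 (SE 0.14) and 0.08 (SE 0.15). Pck1, which supplies glycerol backbone from pyruvate, was below the filter.

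Among droplet coat proteins, Plin2, the perilipin of small droplets in many cell types, read 6319.5, 9055, 9765 and 18614 on the knockout arrays and 6704, 13974, 14215 and 16039 on the control arrays (1448318_at). The lowest and the highest array were both of knockout cells, and the log2 difference of -0.26 (95% interval -0.94 to 0.43) did not pass. It was -0.03 without knockout array 1 and -0.55 without knockout array 4. Plin5, the perilipin of oxidative tissues, read 489.8, 299, 111 and 60.9 on the knockout arrays, against 359.6, 324, 153 and 326 on the control arrays, a log2 difference of -0.40 with the largest standard error of any tested member gene (0.43). Without knockout array 4 the Plin5 difference was -0.06, and without knockout array 1 it was -0.75. Plin3 and Plin4 gave -0.18 (SE 0.13) and 0.03 (SE 0.24). The adipocyte droplet protein Cidec was below the filter, at 23.0 to 101 on the knockout arrays and 16.1 to 36.7 on the control arrays.

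Of the lipolysis genes, 6 were tested, 2 above 0 and 4 below. Mgll, which cleaves the last acyl chain off glycerol, read 358, 352, 347 and 287 on the knockout arrays and 307, 545, 742 and 525 on the control arrays (1453836_a_at). This gave the lowest log2 difference of any tested member gene, -0.51 (95% interval -1.05 to 0.03, limma adjusted p = 0.999), but another Mgll probe set, 1450391_a_at, read 308, 434, 284 and 355 on the knockout arrays against 256, 284, 181 and 207 on the control arrays, a log2 difference of 0.45 (SE 0.24). The direction for Mgll therefore depended on the probe set. The same held for 7 of the 20 member genes with several tested probe sets, though in 0 of them did opposite probe sets each reach an unadjusted p of 0.05. Abhd5, the coactivator of adipose triglyceride lipase, read 3192, 4259, 3902 and 4717 on the knockout arrays and 3615, 4452, 4353 and 5842 on the control arrays (1417565_at, log2 difference -0.17, 95% interval -0.53 to 0.18). The lipase itself, Pnpla2, its inhibitor G0s2 and hormone-sensitive lipase, Lipe, gave -0.01 (SE 0.18), 0.03 (SE 0.19) and -0.27 (SE 0.20).

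The adiponectin and leptin genes, hormones of mature fat, were below the filter on low values. Adipoq, the adiponectin gene, read 119, 42.8, 102 and 127 on the knockout arrays and 98.6, 62.0, 31.3 and 81.6 on the control arrays. Lep, the leptin gene, read 22.1, 41.9, 60.5 and 35.3 on the knockout arrays and 43.0, 105, 157 and 40.5 on the control arrays. The filter corresponds to a signal of 215, and neither gene got a test. The scavenger receptor Cd36, a fatty acid importer of adipocytes and macrophages, was also below it. Its brightest probe set read 69.7, 105.9, 200.4 and 138.8 on the knockout arrays and 82.6, 105.2, 128 and 47.9 on the control arrays. A dimmer one, 1450883_a_at, read 2.3 to 18.8 in knockouts and 34.8 to 170.5 in controls. All its knockout values lay under the offset of 73.1, and it got no test. The dimmest, 1423166_at, overlapped, at 13.9 to 67 in knockouts and 6.7 to 38.7 in controls. An untested Mgll probe set, 1431331_at, did not overlap either, at 18.3 to 60.9 in knockouts and 61.3 to 103 in controls. The share of such probe sets below the filter was not counted. Acacb, Mlxipl, Pck1, Lpin3, Cidec and Aqp7 complete the 9 members below the filter. Of these, Mlxipl read 260.1, 226, 92.5 and 42.5 on the knockout arrays and 229.7, 471.1, 360.8 and 212.2 on the control arrays. Its log2 difference of -0.85 lay farther from 0 than that of any tested member gene. The Mlxipl groups overlapped, and it got no test. Over all 33 untested member probe sets the signal was 0.3 to 471.1.

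Retn, the resistin gene, was the only adipokine tested, at 934, 844, 606 and 526 on the knockout arrays and 584, 1172, 1028 and 774 on the control arrays (log2 difference -0.26, 95% interval -0.77 to 0.26). Slc2a4, the insulin-responsive glucose transporter, read 921, 1026, 828 and 1253 on the knockout arrays and 748, 1063, 1159 and 1087 on the control arrays (log2 difference -0.01, 95% interval -0.40 to 0.39). The groups overlapped for both genes. All 11 of 11 measured preadipocyte and fibroblast markers passed the filter, with a summed signal of 497463 to 567697 in knockouts and 512568 to 606678 in controls. Of the 8 markers listed for mature adipocytes, Adipoq, Cidec and Lep lay below the filter, Fabp4, Retn and Slc2a4 above it, and Plin1 and Cfd were not analysed here.

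The replicate number separated more of the lipid genes than the group did. An F test of the replicate number, in the model with group, called 15 of 62 member probe sets at an adjusted p under 0.05 (24.2%), against 8.3% of all tested probe sets. By the brightest probe set, 10 of 36 genes were called (27.8%), against 9.37% of all tested genes. Over all tested probe sets the share called rose with the filter, from 2.6% without one to 14.5% in the upper 40%. No background of like signal to the members was made. Replicate 1 was the lowest of the 4 replicate means for Lpl, Fabp4, Plin2, Plin4 and Abhd5, 5 of 36 against 3.44% of all genes, and the highest for Cav1, Acsl4, Fasn, Scd1 and Scd2, 5 of 36 against 3.88%. The labels do not say what a replicate number stands for. The range between the replicate means exceeded the size of the group difference in 35 of 36 member genes and in 92.8% of all tested genes. A range over 4 means is wider by construction than a difference between 2.

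**Figure D2:**
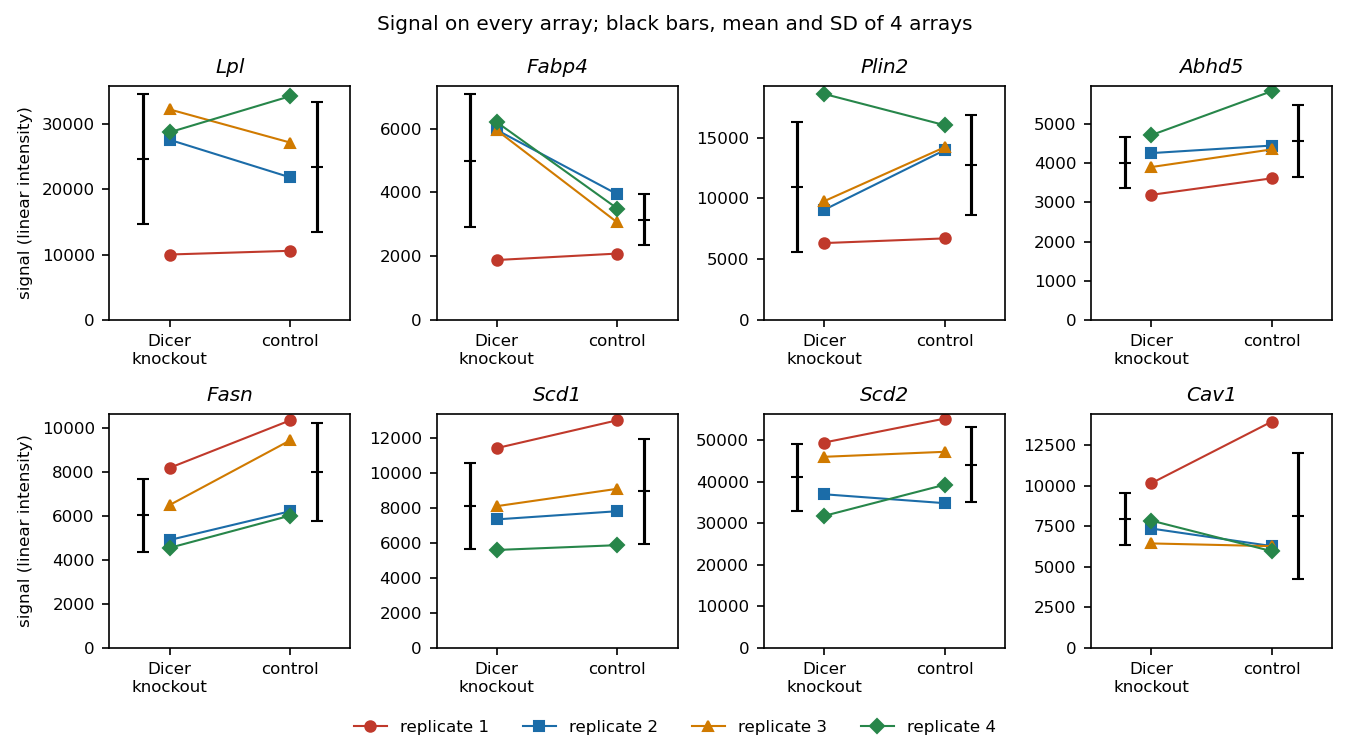
Signal (linear intensity) of 8 member genes on every array, knockout left and control right, with lines joining same-numbered arrays and black bars for mean and SD of 4 arrays. Replicate 1 is lowest in both groups for Lpl, Fabp4, Plin2 and Abhd5 in the upper row and highest in both for Fasn, Scd1, Scd2 and Cav1 in the lower row.

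Lpl moved most among the genes called across replicate numbers. Over both arrays of a number, replicate 1 stood at 0.364 times the mean of the other replicates (F test adjusted p = 0.000208), as it read 10006 in knockout and 10574 in control cells while the other 6 arrays read at least 21832. The other Lpl probe set named here, 1431056_a_at, read 3399.6 and 2870.2 on the arrays numbered 1 and 6332.7 to 10097.9 on the rest (F test adjusted p = 0.000205). Plin2 stood at 0.497 times in replicate 1 (F test adjusted p = 0.00338), Fabp4 at 0.440 times (adjusted p = 0.00905), Plin4, a perilipin of nascent droplets, at 0.678 times (adjusted p = 0.0334) and Abhd5 at 0.750 times (adjusted p = 0.0421). For these 5 genes of uptake, droplet coating and lipolysis the array numbered 1 was the lowest in both groups. For Plin4, knockout array 1 was close to arrays 2 and 3 (1777.1 against 1826.4 and 1856.3). Replicate 4 stood 0.53 above the mean of all replicates for Plin4 and 0.31 above for Abhd5, in log2 units. Neither gene was called without replicate 4 (F test adjusted p = 0.439 and 0.299).

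The synthase gene Fasn and the desaturase genes Scd1 and Scd2 ran the other way, the 3 called of the 9 tested genes of de novo lipogenesis. Scd1 read 11398 and 12992 in replicate 1 (knockout, then control), 7325 and 7792 in replicate 2, 8081 and 9074 in replicate 3 and 5576 and 5851 in replicate 4 (1415964_at). Replicate 1 was highest and replicate 4 lowest in both groups (F test adjusted p = 0.000838). Fasn was called as well (1.51 times in replicate 1, adjusted p = 0.00273), and Scd2 read 49425, 36958, 45988 and 31728 on the knockout arrays against 55198, 34813, 47195 and 39242 on the control arrays (adjusted p = 0.0156). For Fasn, Scd1 and Scd2 both odd-numbered replicates lay above both even-numbered ones in each group. The same held for Acsl3, Acsl4, Acaca, Lpin2 and Dgat1, and the reverse for Fabp4 and Abhd5. The probe set for the 5′ part of 18S ribosomal RNA, an array control, showed the same grouping of numbers, at 14007 and 9524.9 on odd and 42617.5 and 43029.9 on even knockout arrays, against 11356 and 5905.9 on odd and 30583.9 and 36375 on even control arrays. Its part in these results was not tested. The 3′ to 5′ signal ratio of the actin control, a sign of RNA integrity, was 1.78 to 2.01 in knockouts and 1.66 to 2.06 in controls.

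Cav1 read 10148, 7354, 6432 and 7846 on the knockout arrays and 13958, 6268, 6263 and 5954 on the control arrays, with replicate 1 at 1.78 times the others (F test adjusted p = 0.0176). Acsl4 stood at 1.24 times (adjusted p = 0.0283). Of the further probe sets of members, 1 of Fabp5, 1 of Acly and 1 more each of Lpl, Fabp4 and Abhd5 were called, which makes up the 15. No member of the triglyceride synthesis genes, the adipokines or Slc2a4 was called across replicate numbers.

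The calls across replicate numbers depended on the filter, the samples and the variance model. Without a filter on low values the F test called 10 of 95 member probe sets, against 2.6% of all tested. Of the 10 genes called, 5 stayed called there. In the upper 40% of probe sets the F test called 19 member probe sets, against 14.5% of all tested. The number of members tested there is not given here. Without replicate 1 the F test called 2 of 62 member probe sets, those of Fasn and Scd1, against 2.94% of all tested. Without replicate 4 it called 8 of 62, against 2.32%, and with each array centred on its median 8, against 3.39%. Without limma's mean-variance trend it called 0 of 62 and 0 of 27026 by adjusted p, with 22 of 62 members at an unadjusted p under 0.05, against 17.9% of all. With quantile normalization and with median centring, replicate 1 kept its side for all 10 genes. Median centring moved replicate 1 of Lpl only from -1.46 to -1.40 log2 units against the mean of the others. The 10 genes were picked for their calls in these same data, so this is no independent check.

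Markers listed for preadipocytes and fibroblasts differed between the replicate numbers too, not all in the same direction. Of 11 tested, 6 were called by the same F test (54.5%), against 9.37% of all tested genes. No background of like signal was made for these bright markers. The 6 were Pdgfra, Pdgfrb, Dlk1, Col3a1, Lum and Dcn. Dlk1, a secreted inhibitor of adipogenesis, read 60140.3, 25167.6, 24502.7 and 15603.5 on the knockout arrays and 72944.1, 44809, 50687.1 and 26166.8 on the control arrays, highest in replicate 1 and lowest in replicate 4 in both groups. Its log2 difference was -0.72 (SE 0.37, adjusted p = 0.0436 in the paired fit and 0.999 in the unpaired fit of limma). Lum, a proteoglycan of the matrix, read 3436.2, 4390.8, 5278.7 and 8817.9 on the knockout arrays and 2386, 4844.4, 6375 and 12078.9 on the control arrays, the reverse. Dlk1 was the 1 marker of this list that passed the paired fit between knockout and control, against 0.0481% of all tested probe sets. Of the macrophage markers 0 of 6 and of the endothelial markers 0 of 5 were called across replicate numbers. Skeletal muscle, epithelial and brown fat markers, 4, 3 and 3 of them tested, gave 0 calls in any of these tests and had median log2 differences of 0.54, 0.16 and 0.08. The part of these markers in the lipid gene values was not tested.

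**Figure D3:**
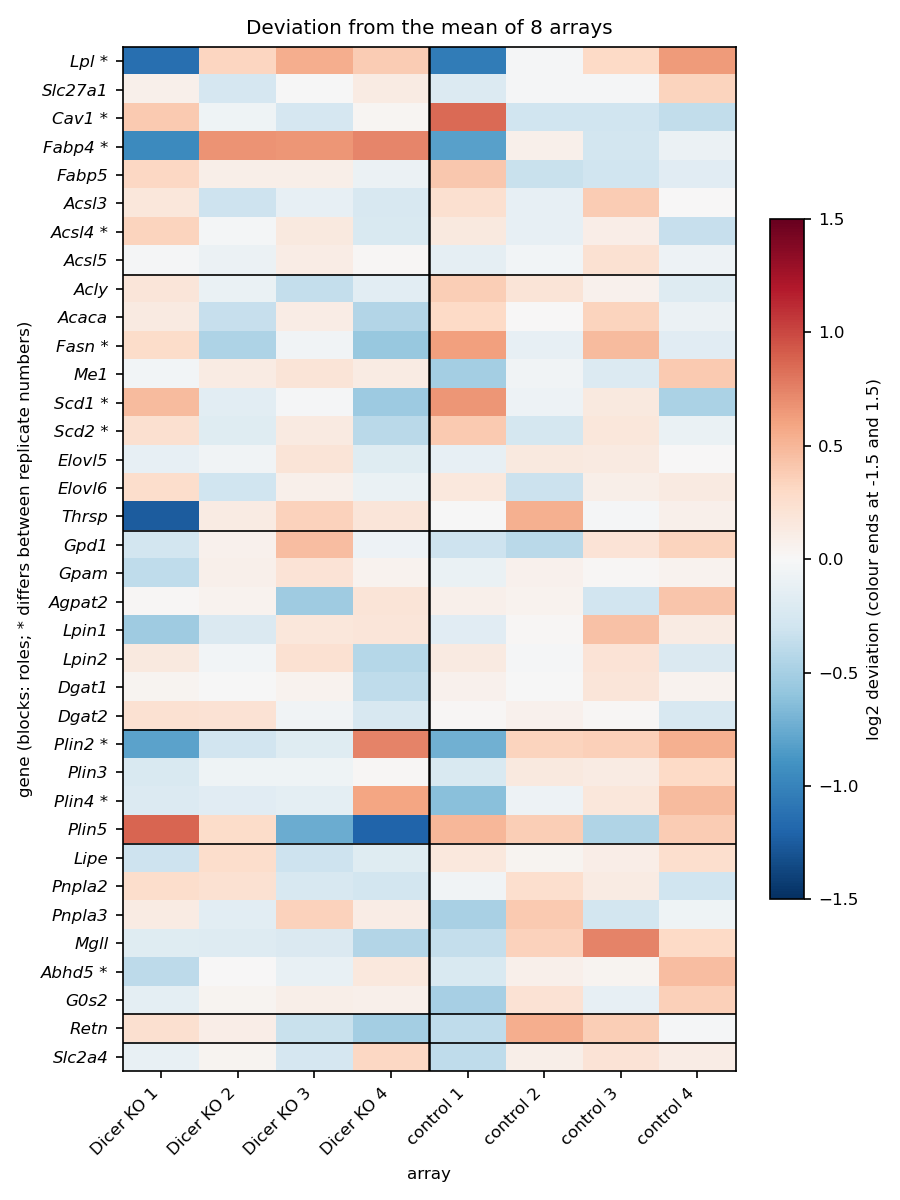
Deviation of each tested gene from its mean over 8 arrays, in log2 units, with the 4 knockout arrays left and the 4 control arrays right, roles divided by lines and an asterisk for the 10 genes called across replicate numbers. In both groups the column numbered 1 is blue for Lpl, Fabp4 and Plin2 and red for Cav1, Fasn and Scd1.

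Of the 10 genes called across replicate numbers, the promoters of Fasn and of the droplet genes Plin2, Plin4 and Abhd5 are shown. They stand for both sides of replicate 1, which was highest for Fasn and lowest for the droplet genes. The 250 bases before the annotated start are given 5′ to 3′ from RefSeq, GRCm38.p6, which held entries for 39 members and none under the symbols Lpl, Fabp4, Scd1 or Scd2. Capitals mark matches, on either strand, to 5 motifs searched, the CCAAT box (CCAAT or ATTGG), the GC box (GGGCGG or CCGCCC), the E-box (CACGTG), the TATA box (TATAAA or TTTATA) and the core of the sterol response element (TCACCCCAC or GTGGGGTGA).
Fasn (chr11:120824548-120824797, minus strand): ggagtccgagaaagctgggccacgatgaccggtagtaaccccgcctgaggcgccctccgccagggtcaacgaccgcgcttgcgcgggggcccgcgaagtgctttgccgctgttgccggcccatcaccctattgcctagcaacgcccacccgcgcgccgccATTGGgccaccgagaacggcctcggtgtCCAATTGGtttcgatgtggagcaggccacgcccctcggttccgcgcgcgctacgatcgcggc
Plin2 (chr4:86670060-86670309, minus strand): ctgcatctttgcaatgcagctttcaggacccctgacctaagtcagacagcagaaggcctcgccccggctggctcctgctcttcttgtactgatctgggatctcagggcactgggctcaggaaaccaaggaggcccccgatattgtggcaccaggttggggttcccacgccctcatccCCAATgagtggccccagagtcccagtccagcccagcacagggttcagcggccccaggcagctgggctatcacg
Plin4 (chr17:56109783-56110032, minus strand): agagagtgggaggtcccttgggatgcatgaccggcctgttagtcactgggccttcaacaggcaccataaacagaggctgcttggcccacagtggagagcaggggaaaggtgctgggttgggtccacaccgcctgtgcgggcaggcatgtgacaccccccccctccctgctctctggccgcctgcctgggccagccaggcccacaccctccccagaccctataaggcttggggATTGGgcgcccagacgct
Abhd5 (chr9:122351366-122351615, plus strand): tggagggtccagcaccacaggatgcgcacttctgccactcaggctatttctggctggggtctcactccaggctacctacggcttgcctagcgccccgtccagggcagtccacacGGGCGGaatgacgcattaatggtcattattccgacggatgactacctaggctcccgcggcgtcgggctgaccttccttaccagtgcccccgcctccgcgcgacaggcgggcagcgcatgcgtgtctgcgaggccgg

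The Fasn promoter held 3 CCAAT box matches, at -90, -62 and -59 from the start, the last 2 of which overlap on opposite strands. Plin2 held 1 at -73 and Plin4 1 at -18, and Abhd5 held a GC box match at -136. A CCAAT box match was found in 33.8% of all 32851 promoter entries and in 20 of the 54 entries of members (37.0%). A GC box match was found in 32.7% of all and 26 of 54 entries of members (48.1%), an E-box in 6.02% of all and 6 of 54, a TATA box in 12.4% of all and 2 of 54, and the sterol response core in 0.496% of all and 1 of 54. A match describes letters in this window and is no measure of binding, and the windows shown share no single motif.

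Further genes of the pathway were listed for comparison. Of 46 tested regulators, elongases, acyltransferases and further lipid genes, 23 were above 0 and 23 below, and 0 passed in either fit. The smallest unadjusted p-values belonged to the desaturase Fads3 (log2 difference 0.36, SE 0.17), the lipase maturation factor Lmf1 (-0.56, SE 0.28) and the elongase Elovl4 (-0.31, SE 0.16). Of 13 tested insulin and adipokine signalling genes 5 were above 0 and 8 below, and 0 passed, with the adiponectin receptor Adipor1 (0.25, SE 0.12), Nampt (-0.17, SE 0.12) and the glucose transporter Slc2a1 (0.15, SE 0.12) at the smallest p. Across replicate numbers 10 of the 46 (21.7%) and 2 of the 13 (15.4%) were called, against 9.37% of all tested genes.

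**Figure D4:**
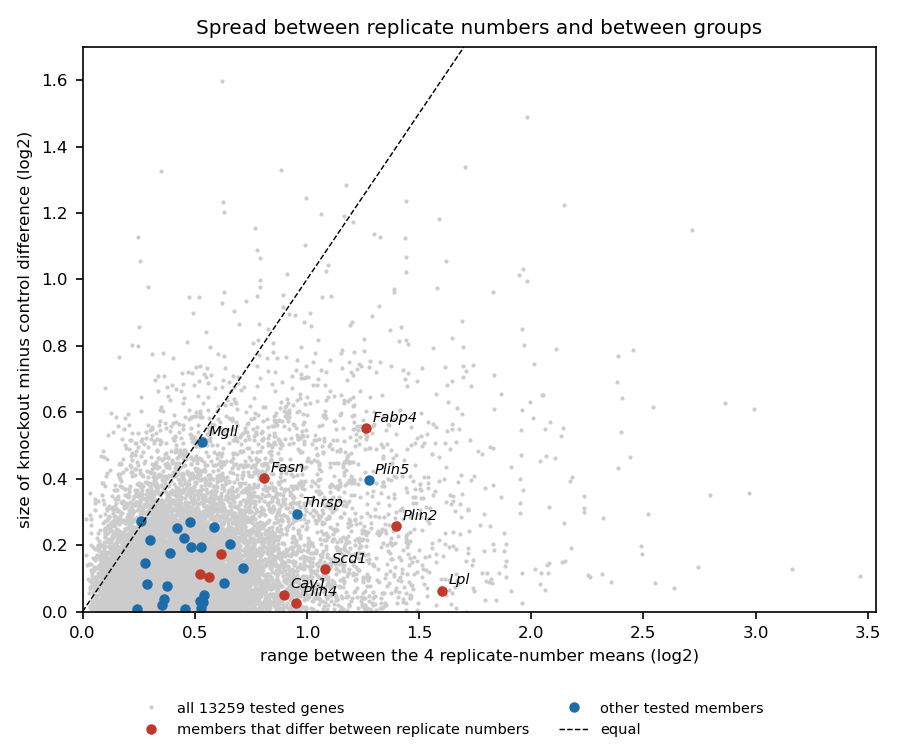
Range between the 4 replicate-number means (x axis, log2) against the size of the knockout minus control difference (y axis, log2) for all 13259 tested genes (grey) and the 36 tested members, in red where the replicate numbers differed. Lpl has a range of 1.60 and a difference of 0.06, and of the members only Lipe lies above the dashed line of equality.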

How the data were processed

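The deposited values are linear intensity signals of 45101 probe sets on 8 arrays, made by the authors with Affymetrix GCOS 1.3 and MAS5, per the submitters' processing notes. Every array had the same 2% trimmed mean, and any further normalization is one that the sources used here do not state. Of the 45037 probe sets that are no controls, 34945 had 1 gene symbol, 932 several and 9160 none.

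Values were taken as log2(signal + 73.1), the offset being the 20th percentile of all values, and probe sets in the upper 60% by mean were tested with limma 3.58.1 in R 4.3.3 (eBayes with trend, two-sided, Benjamini-Hochberg adjustment over 27026 probe sets, threshold 0.05). A gene is its brightest tested probe set. The code was tested on simulated data. Deviations from the group means correlated at 0.189 to 0.372 between same-numbered arrays and at -0.347 to 0.149 between others, so same-numbered arrays were treated as pairs. This pairing comes from the data, since the labels give only the numbers.

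The members and the gene lists (other lipid genes, insulin and adipokine signalling, and markers of preadipocytes, macrophages, endothelium, skeletal muscle, epithelium, brown fat and mature adipocytes) were chosen with earlier results of these data known. Values on all arrays are given for members with an unadjusted p under 0.05 in either fit, for those with the largest difference and the smallest replicate p in each role, and for classic adipocyte markers. A few further genes called across replicate numbers, and Mlxipl, were added after their values were seen. Alternatives were the filter, offset, scaling, variance trend, replicate block, probe set choice and leaving out arrays or pairs.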

Additional observations from a re-analysis of the deposited data

Results flagged for a closer look

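In 7 of 72 groups of 4 arrays (9.72%), 1 array stood apart from the other 3, its gap to the nearest being over 0.829 of the group's range. Chance sets apart about 1 in 20 such groups. Among knockout arrays these were Fabp4 in replicate 1, at 1877.4 against 5952 to 6206.2 on the other 3, Dgat1 in replicate 4, at 1550.2 against 2026 to 2121.8, Plin4 in replicate 4, at 3147.1 against 1777.1 to 1856.3, and Mgll in replicate 4, at 287.4 against 346.8 to 358. Among control arrays they were Cav1 in replicate 1, at 13958.4 against 5953.7 to 6268.2, Elovl6 in replicate 2, at 2362.8 against 3178.9 to 3342.1, and Thrsp in replicate 2, at 370.4 against 230.7 to 251.5.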

How the results depend on the processing

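With 4 arrays a group and no count behind a signal, the number of arrays limits the precision, and the dimmest members could not be tested. The count of members called between knockout and control was 0 under every filter, offset, scaling and variance model and with the replicate block, and 0 to 1 when an array or a pair was left out, the 1 being Fabp4 without pair 1. Over all probe sets the count was 1, against 0 without a filter, 0 with median centring, 0 without the mean-variance trend, 13 with the replicate block, and 0 to 80 when an array or a pair was left out, 80 being without pair 1. The 15 member probe sets called across replicate numbers became 10 without a filter and 19 in the upper 40% of probe sets. They became 8 with median centring, 0 without the trend, and 2 to 16 when a pair was left out. The median log2 difference of member genes was below 0 throughout. Of 15 genes named by rule, 6 changed sign in some alternative. With arrays or pairs left out, Lpl ran from -0.278 to 0.451, Scd1 from -0.309 to 0.0714, Slc2a4 from -0.137 to 0.140 and Agpat2 from -0.248 to 0.0236. With single arrays left out, Plin2 ran from -0.550 to -0.0341 and Plin5 from -0.752 to -0.0620. Slc2a4 was at 0.0726 in the replicate block of even-numbered pairs and Plin5 at 0.0436 in that of odd-numbered pairs, and Acaca was at 0.00293 as a mean over its tested probe sets. Apart from Fabp4 without pair 1, none of the 15 passed in any alternative run. The causes were not tested.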
